A study of Mus musculus with 2 samples.

Results

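The genes described here are 9 secreted inflammatory factors: the cytokine Il6, the CXC chemokines Cxcl1, Cxcl5 and Cxcl12, the CC chemokines Ccl2 and Ccl7, the acute-phase proteins Saa3 and Lcn2, and the matricellular cytokine Spp1 (osteopontin). They were chosen by name, with earlier results of these data known, and all 9 were among the 17408 genes of the table. The data were droplet single-cell RNA-seq of mouse cells on day 16 after induction of the reprogramming factors, which the labels call intermediates on the way to induced pluripotent stem cells (iPSCs). According to the study's methods the starting cells were mouse embryonic fibroblasts (MEFs) that carry STEMCCA, a cassette from which doxycycline turns on the reprogramming factors, and they were kept in embryonic stem cell medium with serum, LIF, ascorbic acid and doxycycline. The labels gave both libraries the same description, so they formed 1 group and are called replicate 1 and replicate 2, and no uninduced or untreated library was analysed here. The study describes its unsorted droplet populations as taken from a pair of separately made STEMCCA mouse systems, and the sample labels tie neither library to one of them. The libraries may therefore differ in mouse system, which cannot be told apart from any other difference between them. P-values measure only how far differences between cell classes varied between these libraries, with an estimate of the spread that borrows from all tested genes.

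Inflammatory secreted factors are a familiar output of cultured fibroblasts. NF-kB, which is released from its inhibitors after IL-1, TNF or Toll-like receptor signals, and the C/EBP factors drive many of them, and IL-6 signals through its receptor Il6ra and the shared subunit Il6st to Jak1 and Stat3. Factors of this kind are also part of the senescence-associated secretory phenotype, a mixture released by senescent cells that has been studied in reprogramming because neighbouring cells can respond to it. CXC chemokines such as Cxcl1 and Cxcl5 attract neutrophils, and Ccl2 and Ccl7 attract monocytes. Cxcl12 is a homeostatic stromal chemokine, and Spp1 binds integrins and Cd44.

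Replicate 1 held 3109 cells with a median of 15625 unique molecular identifiers (UMIs) per cell, and replicate 2 held 3914 cells with a median of 14292. There were 12 cell barcodes that occurred in both libraries. A level is the mean over cells of the UMIs of a gene per 10000 UMIs of the cell. Each UMI stands for 1 captured 3′ end, so levels of different genes are compared as captured molecules, with no scaling by length. Clustering without the 9 genes gave 17 cell states, of which 13 had at least 30 cells in both libraries, and each is called by its leading genes. The Dppa5a Utf1 Zfp42 state was pluripotent-like, with 9 of 10 markers raised by 2-fold or more, in 146 and 391 cells. The Col10a1 Mmp3 Penk state was fibroblast-like by 11 of 13 markers, in 251 and 170 cells. None of these markers was among its 10 leading genes, and the summed fibroblast markers were as high in the Sprr2k Mylk Myh11 state (103 and 96.9 per 10000) as in it (106 and 79.2 per 10000). The Sprr2k Mylk Myh11 state was smooth-muscle-like by 8 of 8 markers, and the C1qtnf3 Rgcc Rarres2 state by 5 of 8. Spp1 was among the 10 leading genes of the fibroblast-like state although it had no part in the clustering. Pluripotent-like cells were deeper, with medians of 28768 and 26097 UMIs against 13449 and 11411 in fibroblast-like cells, so shares of cells with a UMI are given after thinning every cell to 4500 UMIs.

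The 9 factors spanned a wide range of abundance. Spp1 stood far above the rest, at 8.75 per 10000 in replicate 1 (44563 UMIs) and 5.91 in replicate 2 (33981 UMIs). Ccl7 followed at 0.960 and 0.829 per 10000, and Cxcl12 at 0.788 and 0.432. The other 6 lay near or below 0.1 per 10000 in both libraries. Lcn2 had 288 and 429 UMIs, Cxcl1 had 173 and 266, Cxcl5 had 270 and 143, Ccl2 had 225 and 158, and Saa3 had 67 and 422. Il6 was nearly undetected, with 4 UMIs in 4 cells of replicate 1 and 0 UMIs in replicate 2. A mean of at least 0.1 per 10000 was required for a test, so Spp1, Cxcl12 and Ccl7 were tested and the other 6 are described by their values.

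The proximal promoters of 4 of the factors are shown because they hold, or lack, the NF-kB and C/EBP motifs of this gene class across the range from the least to the most abundant member. Promoter sequences of 6 of the 9 genes were in the RefSeq table (GRCm38.p6), and the search ran from 250 bases before to 50 bases after the start, on both strands. The NF-kB consensus was in 4.51% of the 32851 promoters of the table, and the C/EBP pattern TTNCNNAA in 40.7%. The 130 bases before the start are printed 5′ to 3′ on the strand of the gene, with matches to either motif in capitals. They lie at chr5:30012984-30013113 (plus strand) for Il6, chr5:90891115-90891244 (plus) for Cxcl1, chr7:46715677-46715806 (minus) for Saa3 and chr5:104434981-104435110 (plus) for the first start of Spp1.
Il6: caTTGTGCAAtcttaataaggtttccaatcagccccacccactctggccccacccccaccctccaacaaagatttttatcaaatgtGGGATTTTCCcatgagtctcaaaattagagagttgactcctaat
Cxcl1: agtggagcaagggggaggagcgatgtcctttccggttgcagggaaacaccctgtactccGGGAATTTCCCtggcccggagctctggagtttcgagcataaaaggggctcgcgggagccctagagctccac
Saa3: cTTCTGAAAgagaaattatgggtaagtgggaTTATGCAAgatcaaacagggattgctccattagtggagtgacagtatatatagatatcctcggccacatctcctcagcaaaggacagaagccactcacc
Spp1: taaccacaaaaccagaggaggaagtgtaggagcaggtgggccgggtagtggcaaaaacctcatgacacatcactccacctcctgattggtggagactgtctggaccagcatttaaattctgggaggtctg

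The Il6 promoter held the NF-kB consensus from -44 to -35 and a C/EBP match from -128 to -121, with the base before the start as -1. Cxcl1 held the NF-kB consensus on both strands in overlapping places, from -71 to -61. Saa3 held 4 C/EBP matches in the searched window, of which 2 are printed, and no NF-kB match, and Lcn2 held 1 C/EBP match. No match of either motif was found in the window of Cxcl12 or at the first start of Spp1, and the second start of Spp1 had 2 C/EBP matches. A match describes letters only, and promoters of Cxcl5, Ccl2 and Ccl7 were not analysed here.

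**Figure D1:**
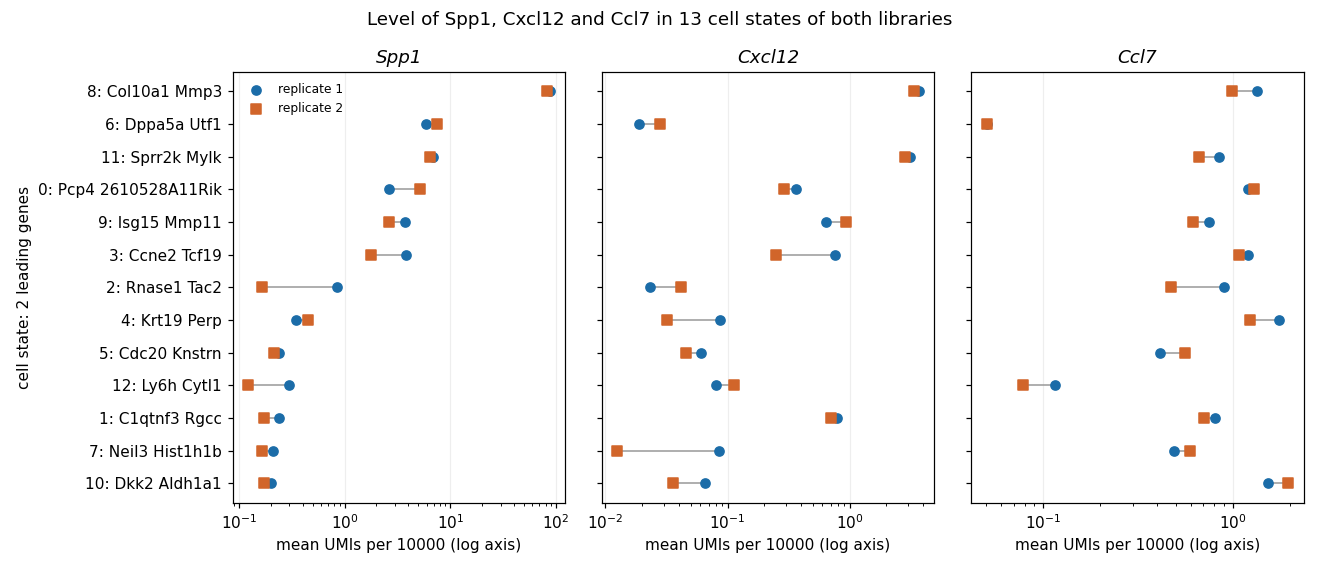
Mean UMIs per 10000 (log axes, scaled separately) of Spp1, Cxcl12 and Ccl7 in the 13 cell states with at least 30 cells in both libraries, 1 point per library, with states ordered by Spp1. Spp1 and Cxcl12 are highest in the Col10a1 Mmp3 state, whereas Cxcl12 and Ccl7 are lowest on average in the pluripotent-like Dppa5a Utf1 state.

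Spp1 is a phosphorylated glycoprotein of mineralising and inflamed tissue. Its level in the fibroblast-like Col10a1 Mmp3 Penk state was 87.5 per 10000 in replicate 1 and 82.2 in replicate 2 (84.8 ± 3.74, SD, n = 2 libraries). This state was 8.07% and 4.34% of the cells and held 80.7% and 60.4% of the summed Spp1 level. Of the 13 states with enough cells in both libraries, the pluripotent-like state came next with 5.92 and 7.53 per 10000, overlapping the Sprr2k Mylk Myh11 state with 6.82 and 6.41. Below them the Pcp4 2610528A11Rik Enpp2 state had 2.65 and 5.15, the Isg15 Mmp11 Irf7 state 3.74 and 2.64, and the Ccne2 Tcf19 E2f7 state 3.85 and 1.77. The other 7 of these 13 states were under 1 per 10000 in both libraries, with the lowest mean in the Dkk2 Aldh1a1 Apba2 state (0.202 and 0.171). The macrophage-like cells, 4 and 9 in number, were above the pluripotent-like state at 17.6 and 35.5. Among the 13, the state highest on average was 455-fold above the lowest.

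Similar means hid different distributions over cells. At 4500 UMIs per cell, Spp1 was found in 81.5% (exact 95% binomial interval 74.3 to 87.4) and 87.2% (83.5 to 90.4) of pluripotent-like cells, and in 75.7% (69.9 to 80.9) and 72.4% (65.0 to 78.9) of fibroblast-like cells. In the other 11 of the 13 states it was found in 5.22% to 29.3% of cells. These intervals cover counting error only. Without thinning, 98.6% and 98.2% of pluripotent-like cells had a UMI of Spp1, against 23.0% and 16.3% in the Dkk2 Aldh1a1 Apba2 state, and the part of free RNA in such low shares was not tested. Among pluripotent-like cells the level was even, with medians of 5.47 and 6.09 per 10000, highest cells at 15.0 and 51.9, and 21.7% and 27.7% of the summed level in the 10% of cells with the most. In the fibroblast-like state it was uneven, with medians of 26.1 and 16.9, highest cells at 944 and 861, and 49.9% and 55.0% of the level in the top 10%. In the Sprr2k Mylk Myh11 state the mean was close to the pluripotent-like one, but the medians were 0.362 and 0 and the top 10% held 92.1% and 94.7%. Spp1 was thus present in nearly every pluripotent-like cell, while in the Sprr2k Mylk Myh11 state a few cells carried nearly all of it. Pluripotent-like Spp1 was 29.4-fold and 43.9-fold above the Dkk2 Aldh1a1 Apba2 state.

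**Figure D2:**
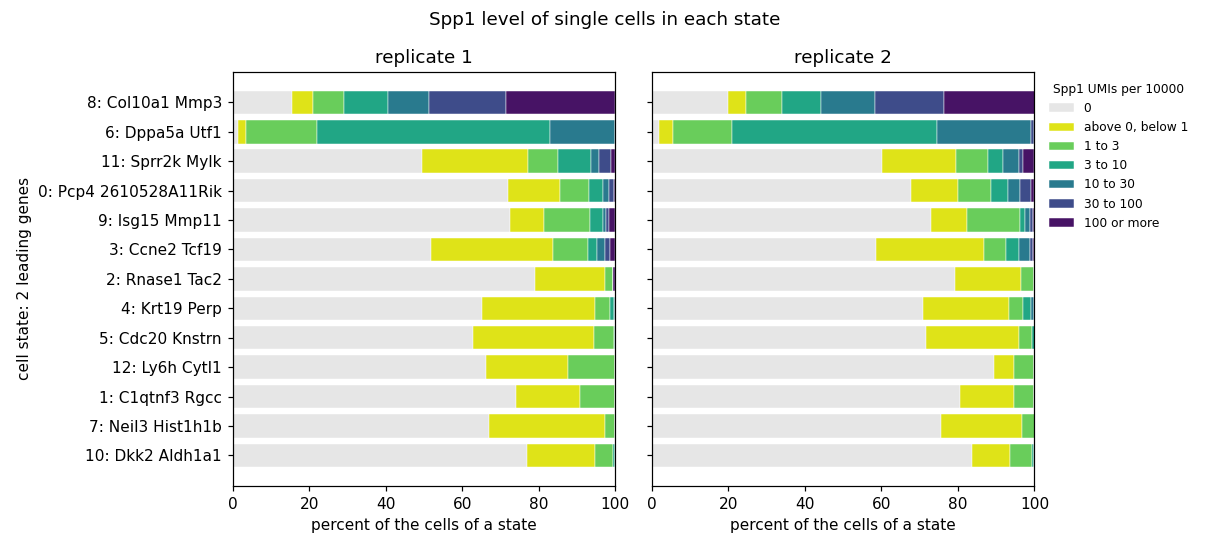
Percent of the cells of each state in each range of Spp1 level (UMIs per 10000 of the cell, not thinned), by library. In the pluripotent-like Dppa5a Utf1 state 61.0% and 53.5% of cells lie between 3 and 10, whereas the Col10a1 Mmp3 state has 28.7% and 23.5% at 100 or more beside 15.5% and 20.0% with none.

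In the fit across all genes, with 1 profile per class and library, Spp1 was higher in pluripotent-like than in remaining cells, which are all cells of neither class. The levels were 5.92 and 7.53 against 1.61 and 1.85 per 10000 in the same libraries, and the fold was 1.89 on the log2(mean + 0.1) scale (SE 0.12, limma adjusted p = 3.29e-06). Between fibroblast-like and remaining cells it was 5.54 (SE 0.12, limma adjusted p = 3.06e-07). Class differences were widespread: of 7131 genes tested, 73.7% were called between pluripotent-like and remaining cells (29.9% higher and 43.8% lower), and 42.7% between fibroblast-like and remaining cells (22.6% higher and 20.1% lower). The calls of the 3 tested members are to be read against those shares. Genes used for the clustering are among those counted, whereas the members and the listed genes were left out of it. The shares are therefore not a like-for-like measure. The median fold over all genes was -0.15 in the first contrast, and centred on the median gene Spp1 was 2.04 higher there. Centring also changed the split of the second contrast, from 1615 higher of 3047 calls to 1299 higher of 3209.

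Cxcl12, the ligand of Cxcr4, was a gene of the mesenchymal states. Its level was 3.71 and 3.39 per 10000 in the fibroblast-like state and 3.16 and 2.87 in the Sprr2k Mylk Myh11 state, and the values of the 2 states did not overlap. The Isg15 Mmp11 Irf7 state (0.645 and 0.939), the C1qtnf3 Rgcc Rarres2 state (0.783 and 0.708), the Ccne2 Tcf19 E2f7 state (0.758 and 0.252) and the Pcp4 2610528A11Rik Enpp2 state (0.365 and 0.291) followed, each overlapping its neighbour. In 7 of the 13 states the mean over libraries was below 0.1 per 10000. It was lowest in the pluripotent-like state (0.0188 and 0.0278), although in replicate 2 the Neil3 Hist1h1b 2810417H13Rik state was lower, at 0.0125. At equal depth a UMI was found in 57.8% and 51.2% of fibroblast-like cells and in 0.685% and 0.512% of pluripotent-like cells. The fold against remaining cells was 2.78 in fibroblast-like cells (SE 0.16, limma adjusted p = 1.26e-05) and -2.11 in pluripotent-like cells (SE 0.16, limma adjusted p = 7.99e-06), on the log2(mean + 0.1) scale and in the same direction in both libraries. The second fold depended on the pseudocount, from -0.49 with 1 to -3.74 with 0.01.

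Ccl7, a monocyte chemoattractant, was spread over most states instead. The Dkk2 Aldh1a1 Apba2 state had 1.53 and 1.97 per 10000, the Krt19 Perp Fgfbp1 state 1.75 and 1.24, the Pcp4 2610528A11Rik Enpp2 state 1.21 and 1.30, the fibroblast-like state 1.35 and 0.997 and the Ccne2 Tcf19 E2f7 state 1.202 and 1.07. Neighbours in the order among these states overlapped, whereas the last of them was apart from the C1qtnf3 Rgcc Rarres2 state that followed (0.810 and 0.705). The Neil3 Hist1h1b 2810417H13Rik state (0.488 and 0.597) and the Cdc20 Knstrn Cenpa state (0.413 and 0.558), led by S-phase and mitotic genes, were lower. The Ccne2 Tcf19 E2f7 state is also led by S-phase genes and was among the higher ones, so low Ccl7 was not shared by all such states. The Ly6h Cytl1 Wfdc12 state had 0.116 and 0.0780, and the pluripotent-like state was the lowest of the 13 in both libraries with 0.0505 and 0.0504. At equal depth a UMI was found in 41.2% and 34.9% of Dkk2 Aldh1a1 Apba2 cells and 2.05% of pluripotent-like cells in both libraries. The fold of pluripotent-like against remaining cells was -2.79 (SE 0.12, limma adjusted p = 4.96e-07), and from -0.89 to -3.98 with pseudocounts of 1 and 0.01. In fibroblast-like against remaining cells it was 0.27 (SE 0.12, limma adjusted p = 0.0923), which did not pass the threshold, and its sign changed with the clustering.

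Among the neutrophil-attracting chemokines, Cxcl1 showed no dominant state. Among the 13 states its mean was highest in the fibroblast-like one (0.0542 and 0.0653 per 10000, 23 and 14 UMIs), and all neighbours in the order overlapped. The pluripotent-like state had the lowest mean over libraries, with 1 and 3 UMIs, and in replicate 1 the Ly6h Cytl1 Wfdc12 state had 0 UMIs. Cxcl5 was highest in the fibroblast-like state (0.150 and 0.0567, 58 and 12 UMIs) and the Ccne2 Tcf19 E2f7 state (0.137 and 0.0558, 122 and 41 UMIs), with 0 and 2 UMIs in pluripotent-like cells. In replicate 1 a single Ccne2 Tcf19 E2f7 cell held 89 of its 270 UMIs. Without that cell the level of the state was 0.0535 and that of the library 0.0332 in place of 0.0411 per 10000. Cxcl1 and Cxcl5 lie 129.6 kb apart on chromosome 5, and their UMI ratio was 0.641 in replicate 1 and 1.86 in replicate 2.

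Ccl2 lies 8.26 kb from Ccl7 on chromosome 11 and was far less abundant, with 24.0 and 33.9 Ccl7 UMIs for each of its own. Among the 13 states it was highest in the Krt19 Perp Fgfbp1 state (0.0950 and 0.0621 per 10000, 68 and 40 UMIs), apart from the Ccne2 Tcf19 E2f7 state that followed (0.0588 and 0.0541). Pluripotent-like cells had 0 and 3 UMIs, and 0 of 146 and 0 of 391 cells had one at equal depth, which allows shares of up to 2.05% and 0.767% at 3 counts of the total (exact 95% upper limits 2.495% and 0.939%). Lcn2, a siderophore-binding lipocalin, was highest among the 13 in the Pcp4 2610528A11Rik Enpp2 state at 0.168 and 0.221 per 10000 and was among its 10 leading genes. The state held 31.1% and 52.2% of its summed level. The Ly6h Cytl1 Wfdc12 state overlapped it with 0.0815 and 0.273, and pluripotent-like cells were lowest with 1 and 3 UMIs. With no filter on low values, Cxcl1 (log2 fold -0.47, limma adjusted p = 0.00937) and Lcn2 (-0.76, limma adjusted p = 0.0252) also passed as lower in pluripotent-like cells, whereas Cxcl5 (-0.33, limma adjusted p = 0.285) and Ccl2 (-0.38, limma adjusted p = 0.107) did not.

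Saa3, an acute-phase apolipoprotein, had a pattern of its own. In replicate 2, 342 of its 422 UMIs came from the Trf Saa3 Upk1b state, in which 41 cells had a level of 7.58 per 10000. The cell with the highest level there had 65 UMIs, and without it the level was 5.90. Replicate 1 had 1 cell of this state, so it has no replicate, and Saa3 is one of the genes that name it although it had no part in the clustering. Among the 13 states with enough cells in both libraries, Saa3 was highest on average in pluripotent-like cells, at 0.0752 and 0.0447 per 10000 (34 and 49 UMIs). At equal depth 4.795% (1.95 to 9.63) and 3.07% (1.60 to 5.30) of them had a UMI, and the share was at most 0.581% in each of the other 12 states. In the C1qtnf3 Rgcc Rarres2 state 0 of 533 and 0 of 312 cells had one, which allows shares of up to 0.563% and 0.962% at 3 counts of the total (exact 95% upper limits 0.690% and 1.175%). The Sprr2k Mylk Myh11 state came next on average, but all of its 15 UMIs in replicate 1 were in 1 cell. With no filter the fold of pluripotent-like against remaining cells, which include the Trf Saa3 Upk1b cells, was 0.13 (limma adjusted p = 0.827). How reads shared between genes of the serum amyloid A family were counted was not stated in the sources used here.

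**Figure D3:**
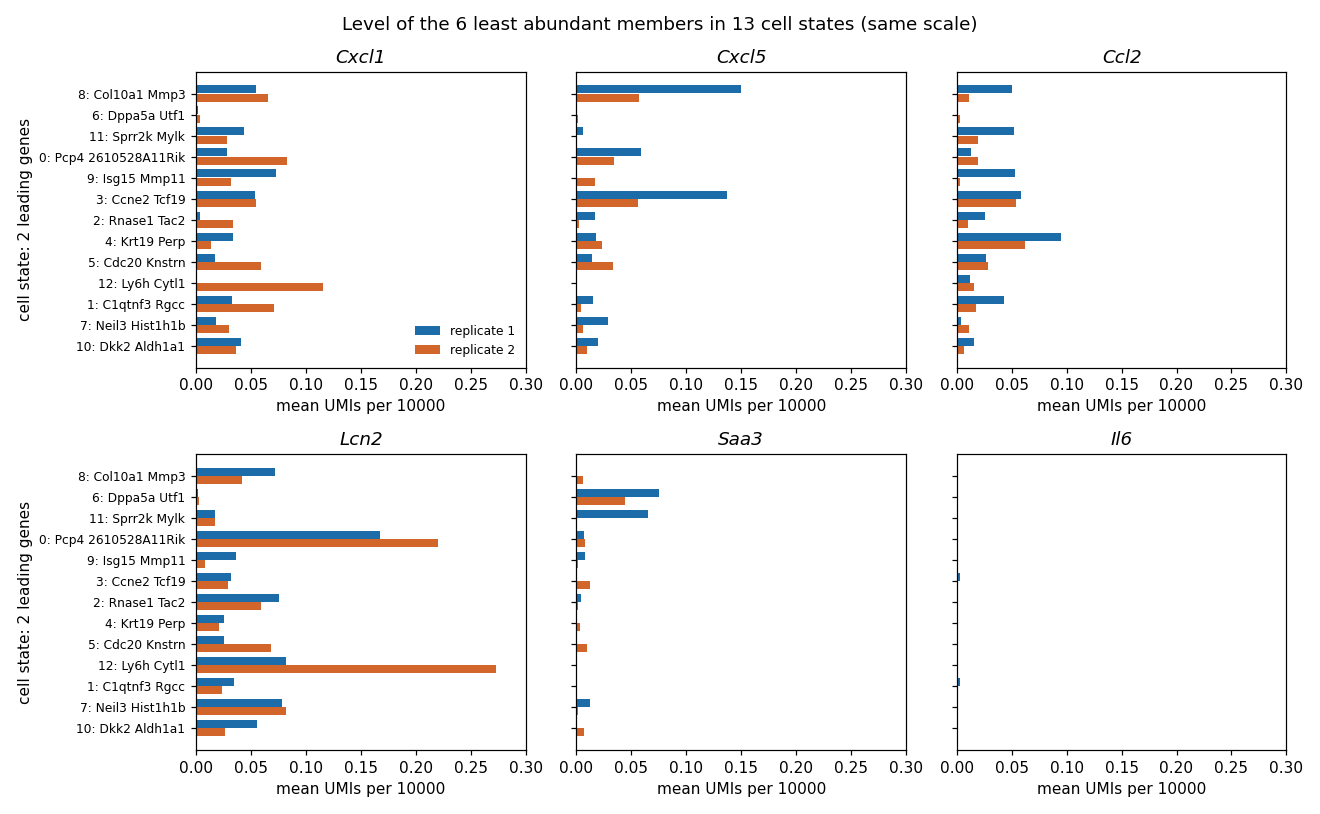
Mean UMIs per 10000 of the 6 least abundant members in 13 cell states, on 1 scale from 0, with 1 bar per library. Cxcl1, Cxcl5, Ccl2 and Lcn2 are near 0 in the pluripotent-like Dppa5a Utf1 state, where Saa3 reaches 0.0752 and 0.0447, and Il6 is near 0 in all 13 states.

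Macrophages are a known source of several of these factors, and 13 macrophage-like cells (4 and 9) were present. All 9 macrophage markers were in the table, and their summed level was 182 and 258 per 10000 in these cells. It was 0.132 and 0.165 in pluripotent-like cells and 0.0559 and 0.0439 in fibroblast-like cells. Of the 9 markers, Adgre1 and Ptprc had 0 UMIs in both classes. Cd68 had 51 and 148 UMIs in pluripotent-like cells, where each of the other markers had at most 7, and 15 and 5 UMIs in fibroblast-like cells, where each of the others had at most 2. Ccl7 reached 7.04 and 7.05 per 10000 in the macrophage-like cells, and Spp1 was also high there. Leaving these cells out gave a fold of 1.93 for Spp1 and -2.77 for Ccl7 in pluripotent-like against remaining cells. Of 9 neutrophil markers 4 were in the table, and their summed level was at most 0.0259 in the 13 states.

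The other genes of the pathway were described from lists, with folds on the log2(mean + 0.1) scale. Their counts are to be read against the 29.9% of all tested genes that were higher and the 43.8% that were lower in pluripotent-like cells. Genes were tested by their mean over all cells, of which 146 of 3109 and 391 of 3914 were pluripotent-like. Their level in the other cells thus largely set which were tested, which favours genes that are lower in pluripotent-like cells. In pluripotent-like against remaining cells, all 8 tested genes of the IL-6 family list were lower (median log2 fold -1.33, against -0.15 over all genes). They included the receptors Il11ra1 (-2.74), Osmr (-2.15) and Il6ra (-1.61). The ligand Il6 was scarce in all states, while its receptor Il6ra was measured at 0.252 and 0.251 per 10000 in remaining cells and 0.0172 and 0.0138 in pluripotent-like cells. Of the IL-1, TNF and Toll-like input list 4 of 17 genes were tested and 4 were lower, led by the antagonist Il1rn (-3.11), the TNF receptor Tnfrsf1a (-2.11) and the IL-17 receptor Il17ra (-1.38). Tnf was at or below 0.00117 per 10000 in each class and library. Of the NF-kB list 9 were tested: 5 were lower, namely the subunits Rela (-0.97) and Nfkb1 (-0.92) with Nfkbia, Nfkbiz and Ikbkb, and 2 were higher, the inhibitor Nfkbib (1.10) and Bcl3 (0.76). Of the C/EBP list 2 were tested and both were lower, Cebpb (-1.47) and Cebpg (-0.46). These folds passed at limma adjusted p-values from 3.69e-07 to 0.0399.

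Other chemokines and receptors followed the same contrast. Of 25 further chemokines 4 were abundant enough to test and 4 were lower in pluripotent-like cells, including Cxcl14 (-2.75), Ccl8 (-2.55) and Cx3cl1 (-1.37). All 7 tested genes of the receptor list were lower, led by the Spp1 receptors Cd44 (-2.84), Itgb5 (-2.61) and Itgb1 (-1.86). Il6ra and Il6st are on both this list and the IL-6 family list, so both contrasts count them in each. Cd44 was at 0.0373 and 0.0472 per 10000 in pluripotent-like cells and at 0.862 and 0.981 in remaining cells. Of the other secreted factors 11 of 12 were lower, with Igfbp3 at -2.91 and Serping1 at -2.73, and 1 was higher, Vegfa (0.33). Of 7 tested senescence genes 3 were lower, the cell cycle inhibitors Cdkn2a (-1.93), Cdkn2b (-1.72) and Cdkn1a (-1.19), and 2 were higher, the lamin Lmnb1 (1.62) and Trp53 (1.14). These folds passed at limma adjusted p-values from 2.59e-07 to 0.0405. The senescence gene Gdf15 was below the mean required for a test. It was at 0.130 and 0.115 per 10000 in pluripotent-like cells and at 0.0276 and 0.0381 in remaining cells.

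In fibroblast-like against remaining cells 22.6% of all tested genes were higher and 20.1% lower, and the lists are to be read against those shares. The receptor list had 6 of 7 higher and 1 lower (Il6ra, -0.51), with Itgb1 at 0.85, Cd44 at 0.61 and Itgb5 at 0.49. The other secreted factors had 8 of 12 higher and 2 lower (C3 and Tnfsf11), and the stromelysin Mmp3 (4.46) had the largest fold of the list. Mmp3 is also a leading gene of this state, picked by its fold in the same cells, so its fold is not an independent result. Its level was 3.57 and 3.73 in fibroblast-like cells against 0.037 and 0.111 in remaining cells. This state thus largely set the mean by which Mmp3 was tested. Of the IL-6 family 4 of 8 were higher, among them Osmr (0.78) and Il11ra1 (0.48), and 2 were lower, Il6ra and Socs3 (-0.51 each). Of the NF-kB list 1 of 9 was higher (Relb, 0.28) and 1 lower (Nfkbia, -0.36), and Rela (-0.05, limma adjusted p = 0.744) and Nfkb1 (0.18, limma adjusted p = 0.198) did not pass. Cebpb was 0.74 higher (limma adjusted p = 0.00477) and Tnfrsf1a 0.51 higher. Of the chemokines, Ccl8 was lower (-1.85) and Cx3cl1 higher (0.72), and Cxcl14 did not pass. Of the senescence list 1 of 7 was higher, Cdkn2b (1.55), and 2 were lower, Lmnb1 (-1.34) and Trp53 (-0.69). Those called passed at limma adjusted p-values from 1.9e-06 to 0.0412, and both contrasts used the same remaining cells.

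**Figure D4:**
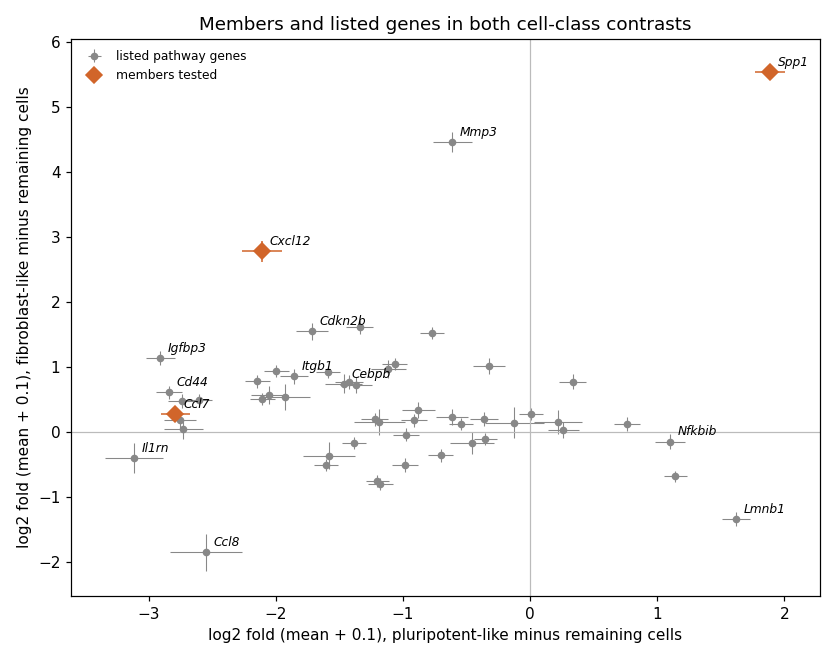
Log2 folds of the 3 tested members (diamonds) and the tested genes of the pathway lists (circles) in pluripotent-like (horizontal) and fibroblast-like (vertical) against remaining cells, with bars for 1 SE. Both axes share the remaining cells, and Spp1 has positive folds on both (1.89 and 5.54), whereas Cxcl12 is at -2.11 and 2.78.

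The members were rarely found together. At 4500 UMIs per cell 51.8% and 54.3% of cells had a UMI of none of the 9, 35.4% and 36.3% had 1, and no cell had more than 5. Among the 13 states, fibroblast-like cells had the most members, with means of 1.69 and 1.5 per cell, and the 4 and 9 macrophage-like cells had means of 1.5 and 1.778. For each of the 36 pairs the cells with both were compared with the number expected from the shares within each state and library, and 12 pairs had an expected number of at least 5 in both libraries. Ccl2 and Ccl7 were found together in 23 and 17 cells, 2.19 and 2.31 times the expected number. Cxcl1 and Ccl7 followed with 1.72 times in both libraries (13 and 26 cells), although at 3000 UMIs the ratio was 0.935 in replicate 1 from 4 cells. Cxcl12 and Spp1 were at 1.21 and 1.36 (194 and 141 cells). Cxcl12 and Ccl7 were at 0.821 and 0.902 (79 and 65 cells), and Ccl7 and Spp1 at 0.894 and 0.921. At 3000 UMIs Cxcl12 and Ccl7 were at 0.746 and 0.932, and Ccl7 and Spp1 at 0.939 and 0.895. Without thinning the former were at 0.993 and 0.969 and the latter at 1.001 and 1.033. The low ratios of these pairs thus depended on thinning. Depth also varied among the cells of a state before thinning, and cells are not replicates, so these ratios carry no test.

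**Figure D5:**
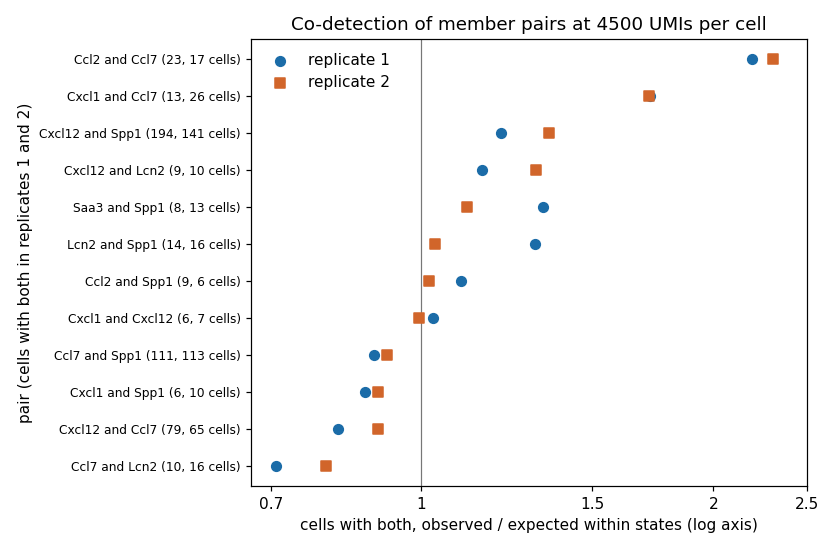
Cells with a UMI of both members divided by the number expected within states (log axis), for the 12 pairs with an expected number of at least 5 in both libraries, with 1 point per library and the numbers of cells beside each pair. Ccl2 and Ccl7 lie at 2.19 and 2.31, and Cxcl12 and Ccl7 lie below 1 in both libraries.

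Over the 13 states the genes most like Cxcl12 were Mrc2, Col3a1, Sned1, Sec24d and Col12a1, with Pearson r of 0.963 to 0.975 in the library with the lower value. Those most like Spp1 were Mfge8, Fxyd5, Emb, Sec61g and Tmem37 (0.821 to 0.845), and those most like Ccl7 were Dynlrb1, Pam, Ece1, Tmem175 and Il1rn (0.847 to 0.895). Points of 1 library share its depth and free RNA, and the values describe the states only. For Cxcl1, Cxcl5, Ccl2, Saa3 and Lcn2 most levels lay below the pseudocount, and r of their nearest genes was 0.719 to 0.845. Il6 could not be ranked.

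Between the libraries Cxcl12 was lower in replicate 2 (log2 difference -0.74), as was Spp1 (-0.56), and Saa3 was higher (0.77). With equal weight to each of the 13 states the differences were -0.15, -0.07 and -0.08. These 13 do not include the Trf Saa3 Upk1b state, which held 90.02% of the summed Saa3 level in replicate 2. The Saa3 value therefore also reflects leaving that state out, and the effect of equal weights alone was not tested for Saa3. The fibroblast-like state was 8.07% of cells in replicate 1 and 4.34% in replicate 2, and the Trf Saa3 Upk1b state was 0.0322% and 1.05%. With 1 library on each side there was no test.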

How the data were processed

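The authors obtained counts with Cell Ranger (2.1.1, mm10), imported them into Seurat and kept cells by detected genes and mitochondrial share. The values they deposited are natural log values: each gene's UMIs are scaled to 10000 per cell, 1 is added and the natural log is taken. Doublet removal is not described in the sources used here, and no cells were removed here. UMIs were recovered from the steps of the values (100.000% of values were whole multiples within 0.01). The 2 libraries held 54145377 and 64654306 UMIs, and single cells between 4753 and 60990.

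The members and gene lists were chosen with earlier results of these data known. Cells were clustered with scanpy (1.11.5) on 2000 variable genes, 30 principal components, 15 neighbours (scikit-learn 1.9.0) and Leiden at resolution 1 (leidenalg 0.10.2). Left out were 719 genes: those linked to the sex chromosomes, reprogramming factors, some pluripotency genes that are not naming markers, the members and the listed genes. The pluripotency and fibroblast markers used for naming were not left out, so their rise in a state is not independent of the clustering. Clusters were named by the marker list of which the largest share was raised 2-fold or more, provided that at least 3 markers and 50% of the list were. Leading genes of a cluster were those with the largest fold against the other cells.

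Classes were compared with limma (3.58.1, R 4.3.3) on log2(mean + 0.1) of 6 profiles with terms for class and library, over 7131 genes with a mean of at least 0.1 and Benjamini-Hochberg adjustment at 0.05. The library term pairs the classes within a library. The fit was checked on simulated data. An exact sign-flip test over 2 libraries has 0.5 as its smallest p. Named genes were all members, up to 3 genes per list with the largest fold in either contrast among those past the threshold in the same direction in both libraries, the 5 genes most like a member and the macrophage and neutrophil markers. Vegfa, Bcl3, Trp53, Cdkn1a, Relb, Nfkbia, Nfkbiz, Ikbkb, C3, Tnfsf11, Socs3 and Gdf15 were named after their values were seen, to complete small counts or lists. Low-value filters, scaling, thinning depth, clustering and pseudocounts were varied, and the closing section gives the effect. Promoters came from RefSeq. Python 3.11.15, numpy 2.4.6, scipy 1.17.1 and pandas 2.3.3 were used.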

Additional observations from a re-analysis of the deposited data

How the results depend on the processing

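Spp1, Cxcl12 and Ccl7 in pluripotent-like against remaining cells, and Spp1 and Cxcl12 in fibroblast-like against remaining cells, kept their direction and stayed past the threshold under all 11 alternatives with a test. The folds ranged from 1.49 to 2.06, -3.74 to -0.49, -3.98 to -0.89, 4.31 to 5.88 and 1.66 to 3.03 in that order, with adjusted p-values of at most 0.0135. With no filter on low values 5 members were called between pluripotent-like and remaining cells in place of 3. Ccl7 in fibroblast-like against remaining cells passed under none (adjusted p from 0.0689 to 0.621) and turned negative at resolution 2 (-0.084) and with the members and listed genes in the clustering (-0.143). The cause was not tested. Leaving out a library left no test: the level of Spp1 in the fibroblast-like state was 82.2 or 87.5. The share of cells with a UMI of any member was 47.0%, 39.7% at 3000 UMIs and 72.1% with no thinning, which is fewer or more UMIs by construction. The median co-detection ratio over 12 pairs was 1.11, 0.949 at 3000 UMIs and 1.00 over all cells of a library, so no direction is read from it. The median share of the level in the top 10% of cells over Spp1, Cxcl12 and Ccl7 was 86.9%, and 93.9% after thinning. Of the 15 genes most like these 3 members, 8 stayed among the first 5 with a pseudocount of 1. For Cxcl12 only Col12a1 stayed. Leaving out the highest cell, an alternative chosen after seeing the data, moved the level of Saa3 in replicate 1 from 0.01001 to 0.00610. Library is a term of the main fit, so the pairing of classes is in every test. The 6 least abundant members are limited by their UMI counts, and Il6 by 4 UMIs.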

Other observations

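Outside the fibroblast-like state a few cells had Spp1 at a fibroblast-like level, 50 per 10000 or more, a limit set after seeing the data. There were 16 such cells in replicate 1, which held 10.1% of the summed Spp1 level of the library, and 31 in replicate 2, which held 18.0%. In replicate 2, 20 of them were in the Pcp4 2610528A11Rik Enpp2 state and 3 were macrophage-like, and in replicate 1 the largest number, 5, was in the Ccne2 Tcf19 E2f7 state. Only 1 cell of them, in replicate 2, was pluripotent-like. Their mean level of Mmp3 was 0.851 and 2.39 per 10000, against 0.0322 and 0.0900 in the other cells outside the fibroblast-like, macrophage-like and pluripotent-like states and 3.57 and 3.73 in fibroblast-like cells. Their Cxcl12 was 4.06 and 1.03, against 0.539 and 0.323. The Sprr2k Mylk Myh11 state, where Cxcl12 was 3.16 and 2.87, held 4 and 3 of the cells with high Spp1. These comparisons were not made within states, so the part of state make-up was not tested. Col10a1, the leading gene of the fibroblast-like state, was 0.0444 and 0.144 in the cells with high Spp1, against 0.01295 and 0.00565 in the other cells and 2.64 and 1.09 in that state. Penk, another of its leading genes, was 1.38 and 0, against 0.094 and 0.038 in the other cells. Ccl7 was 0.424 and 1.76, against 0.968 and 0.896, so neither gene moved the same way in both libraries. The median depth of the cells with high Spp1 was 13928 and 11584 UMIs, within the range of the states. The macrophage marker Lyz2 was at 0 in those of replicate 1 and at 17.2 per 10000 in those of replicate 2, which include the 3 macrophage-like cells.

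The Gpx2 Ly6d Rab25 state, epithelial-like by 9 of 11 markers, had Lcn2 at 0.253 per 10000 in the 63 cells of replicate 1 (32 UMIs), which was above all 13 states of the order in that library. In replicate 2 the state had 4 cells, and all of its 40 Lcn2 UMIs were in 1 of them. Ccl2 in the macrophage-like cells was 0.486 and 0.733 per 10000 from 2 and 7 UMIs.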
